A study of Zea mays with 6 samples.

Results

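Genes for proteases and protease inhibitors were compared between stem nodes of the dwarf maize mutant zmte1-2 and those of WT. A gene was taken where its protein description in the deposited table names a protease, a proteinase, a carboxypeptidase, a protease family such as subtilisin, papain or metalloproteinase, or an inhibitor such as a cystatin, a Bowman-Birk or trypsin inhibitor or a serpin. Components of the ubiquitin system and the proteasome were left out. This gave 47 of the 5546 genes in the table, of which 35 are proteases, 11 are inhibitors and 1 is neither by its description. The proteases comprise 9 subtilisin-like proteases, 10 aspartic proteases, 2 papain-type cysteine proteases, 7 serine carboxypeptidases and 7 other proteases. The inhibitors comprise 4 Bowman-Birk inhibitors, 4 cystatins and 3 inhibitors of the subtilisin-chymotrypsin type, and no description named a serpin. By the gene ontology terms in the same table, 27 of the 35 proteases carry peptidase activity and 9 of the 11 inhibitors carry peptidase inhibitor activity, while 3 inhibitors carry peptidase activity.

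Proteases cut other proteins and are grouped by the residue or metal that does the cutting. In plants many subtilisin-like, aspartic and papain-type proteases are secreted to the cell wall or sent to the vacuole, where they trim peptide signals, recycle proteins and, in differentiating xylem vessels, digest the contents of dying cells. Protease inhibitors are small proteins that sit in the active site of a protease. Many are made after wounding or insect feeding, in part through the hormone jasmonate, and hinder digestion in the animal that eats them.

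The mutant zmte1-2, first named zm66, came from a library mutagenised with ethyl methanesulfonate (EMS), carries a premature stop in ZmTE1, which encodes an RNA-binding protein, and was backcrossed to the inbred line B73. The second group, WT, is B73 itself, so that the mutant is represented by 1 allele of 1 gene. Both genotypes were grown in the field for 28 days, and 3 libraries of each were sequenced from nodes, with internodes by the labels and the Results and without them by the Methods. The labels write zmte1 in the sample titles and zmet1 in the genotype field, and nothing in them says that the libraries came from separate plants, so the tests below measure the spread between these libraries, which may be technical.

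Values are FPKM, the fragments mapped to a gene per kilobase of its transcript after scaling by library size, and the depth of each library is unknown. The table holds solely genes that the authors had called different between these same libraries, so an adjusted p below cannot be read as a rate of false calls. ZmTE1 itself (GRMZM2G085113) had 0.33, 0.1 and 0.49 FPKM in zmte1-2 and 0.51, 1.19 and 1 FPKM in WT, so all 3 zmte1-2 values were under all 3 WT values. A library from each genotype stood apart from its fellows. Over the 3987 tested genes, zmte1-2 library 2 correlated with libraries 1 and 3 of its genotype at r = 0.729 and 0.627, against 0.936 between those libraries. WT library 1 correlated with WT libraries 2 and 3 at 0.795 and 0.838, against 0.926 between those, across genes, which are no independent replicates. Results are therefore also given without zmte1-2 library 2 and WT library 1.

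Most proteases that passed the test were lower in zmte1-2 on the deposited scale, and they came from the subtilisin-like, aspartic, papain-type and serine carboxypeptidase classes and the other proteases, with no call among the metalloproteases, while after the rescaling described below 2 genes passed as lower and 3 as higher. Of the 47 genes, 36 reached an FPKM of 1 in 3 or more libraries and were tested with limma on log2(FPKM + 0.5), and 11 lay under this minimum. At an adjusted p under 0.05, with the Benjamini-Hochberg adjustment over all tested genes, 11 fell (30.6% of those tested) and 1 rose (2.78%). Over all tested genes 34.2% fell and 6.02% rose, so the share of these genes that passed was near that of the whole table in both directions. Their median log2 fold change, zmte1-2 minus WT, was -1.11, against -1.08 over all tested genes. Proteases accounted for 10 of the falls and for the rise, out of 29 tested, and inhibitors for 1 fall out of 7 tested. Among the falls, the protease GRMZM2G377787 and the inhibitor GRMZM2G058358 had no zmte1-2 library at the FPKM minimum and reached it through WT alone. At an unadjusted p under 0.05 limma gave 17 falls and 1 rise, beside 53.5% falls and 11.1% rises over all tested genes, with 0 in either direction among the Bowman-Birk inhibitors and the cystatins. Among all 47 genes, the zmte1-2 libraries lay wholly below the WT libraries in 19 (40.4%) and wholly above them in 5 (10.6%), where 48.8% of all listed genes lay below and 11.4% above.

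The number of calls depended on scaling and on single libraries. Rescaling by the median of ratios raised the median log2 fold change of all tested genes by 0.988 and left 2 falls (GRMZM2G077776 and GRMZM2G151319) and 3 rises (GRMZM2G159016, GRMZM2G136495 and GRMZM2G018044), with all 12 genes keeping their sign, beside 5.17% falls and 13.3% rises over all tested genes. When zmte1-2 library 2 was left out there were 17 falls and 9 rises, beside 48.9% falls and 20.2% rises over all tested genes. The falls numbered 8 when WT library 2 was left out (25.5% of all tested genes fell) and 4 when zmte1-2 library 3 was (17.6%). They numbered 0 for zmte1-2 library 1 (0.0251%), WT library 1 (3.71%) and WT library 3 (0.0502%), so the loss of calls ran through the whole table. In each of these 5 cases there were 0 rises, and over all tested genes between 0.0251% and 4.11% rose. Leaving out both zmte1-2 library 2 and WT library 1, which was decided with the data in view, gave 18 falls and 7 rises, which include all 12 original calls, beside 44.8% falls and 18.9% rises over all tested genes.

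**Figure D1:**
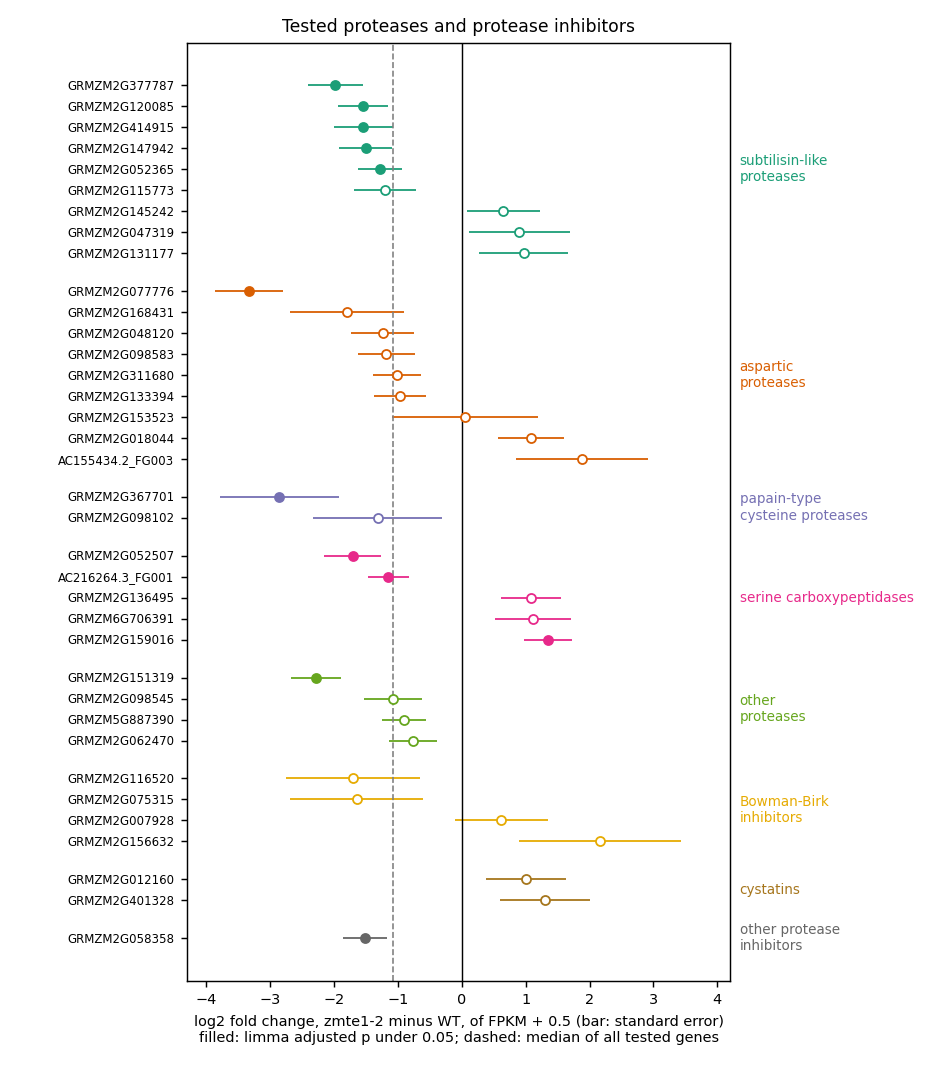
Log2 fold change (zmte1-2 minus WT, horizontal axis, of FPKM + 0.5) with its standard error for each of the 36 tested genes, grouped by class from top to bottom. Filled points passed limma at an adjusted p under 0.05, and the dashed line is the median of all tested genes, -1.08. The 11 filled points left of 0 include 5 subtilisin-like proteases, and SCPL50 (GRMZM2G159016) is the filled point right of 0.

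Subtilisin-like proteases are serine proteases, most of them secreted, that act on wall proteins and on the precursors of peptide signals. All 9 were tested, 5 fell (55.6%), and none rose, beside 34.2% falls and 6.02% rises over all tested genes. After rescaling 0 fell and 0 rose, beside 5.17% falls and 13.3% rises. With 1 library left out, 0 fell for zmte1-2 library 1 (0.0251% of all tested genes fell), WT library 1 (3.71%) and WT library 3 (0.0502%). The falls numbered 1 for zmte1-2 library 3 (17.6%), 4 for WT library 2 (25.5%) and 5 for zmte1-2 library 2 (48.9%). The median log2 fold change of the class was -1.28, beside -1.08 over all tested genes. The summed FPKM of the 9 genes was 59.3, 50.01 and 68.8 in zmte1-2 libraries 1 to 3 and 91.0, 74.4 and 90.4 in WT libraries 1 to 3. On this deposited scale every zmte1-2 sum lay below every WT sum.

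By the mean over all 6 libraries, the most abundant of those that fell was a gene described as SBT1.3 (GRMZM2G414915, chromosome 10 from 136316599 to 136321354, plus strand, in a genome build not given in the sources used here). It had 6.34, 10.5 and 5.24 FPKM in zmte1-2 and 30.9, 14.5 and 22.1 FPKM in WT, a log2 fold change of -1.54 (SE 0.46, limma adjusted p = 0.0405). The groups did not overlap, and zmte1-2 library 2 and WT library 2 came nearest to each other. SBT1.8 (GRMZM2G120085, chromosome 1 from 244618363 to 244621656, minus strand) had 3.55, 4.71 and 3.71 FPKM in zmte1-2 and 15.6, 8.75 and 14.4 FPKM in WT (log2 fold change -1.55, SE 0.39, limma adjusted p = 0.0285). An unnumbered subtilisin-like endopeptidase (GRMZM2G377787, chromosome 1 from 12173132 to 12174224, plus strand) was listed at 0, 0.19 and 0.25 FPKM in zmte1-2 and had 1.56, 1.13 and 4.22 FPKM in WT (log2 fold change -1.98, SE 0.43, limma adjusted p = 0.0215). Its WT libraries spread over a wider fold range than those of SBT1.8, and its zmte1-2 libraries were all near 0. The gene reached the FPKM minimum through its WT libraries alone, so the filter had a part in its being tested and called. Without the minimum it also passed (limma adjusted p = 0.0305).

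The other falls in the class, named after their values were seen, were SBT1.6 (GRMZM2G147942) and SBT2.3 (GRMZM2G052365). SBT1.6 had 6.95, 10.5 and 4.9 FPKM in zmte1-2 and 22.5, 17.1 and 24.4 FPKM in WT (log2 fold change -1.50, limma adjusted p = 0.0356). SBT2.3 had 2.43, 3.03 and 2.73 FPKM in zmte1-2 and 9.02, 5.96 and 7.23 FPKM in WT (log2 fold change -1.28, limma adjusted p = 0.0335). The genotypes were apart in every library for both genes.

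The subtilisin-like gene with the highest mean over all 6 libraries did not pass the test, although in WT alone SBT1.3 and SBT1.6 had higher means. Described as SBT1.7 (GRMZM2G131177, chromosome 2 from 51859923 to 51862668, minus strand), it had 33.0, 9.08 and 43.9 FPKM in zmte1-2 and 7.18, 21.1 and 10.9 FPKM in WT (log2 fold change 0.97, SE 0.70, limma adjusted p = 0.237). Libraries 1 and 3 of zmte1-2 lay above every WT library, and library 2 lay within the WT range. In Arabidopsis the protease of that name loosens the wall of seed coat cells for the release of mucilage. A second gene described as SBT1.7 (GRMZM2G115773, named after its values were seen) had 0.28, 0.52 and 1 FPKM in zmte1-2 and 0.74, 2.47 and 3.43 FPKM in WT (log2 fold change -1.20, limma adjusted p = 0.0721), so the 2 genes that share this description had fold changes of opposite sign. The remaining pair, SBT1.4 and SBT5.3, overlapped between the genotypes. Without zmte1-2 library 2, GRMZM2G131177 had a log2 fold change of 1.64 (limma adjusted p = 0.0249) and SBT1.4 (GRMZM2G047319) 1.85 (limma adjusted p = 0.00897). With any other single library left out neither of the 2 passed (limma adjusted p up to 0.528 and 0.739).

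Aspartic proteases of the pepsin type hold a pair of aspartates in the active site, and the nepenthesins among them are named after a digestive enzyme of pitcher plants. Of the 10 genes 9 were tested, 1 fell (11.1%), and none rose, while the zmte1-2 libraries lay wholly below WT in 5 (50%). Over all tested genes 34.2% fell and 6.02% rose, and 48.8% of all listed genes lay wholly below WT. The median log2 fold change of the class was -1.01. The summed FPKM of the 10 genes was 127, 218 and 103 in zmte1-2 libraries 1 to 3 and 119, 146 and 113 in WT libraries 1 to 3, so the sums overlapped.

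With all 6 libraries this fall was the largest among the proteases and inhibitors tested, while without zmte1-2 library 2 that of XCP2, described below, was larger (log2 fold changes -3.80 for GRMZM2G077776 and -3.99 for XCP2, GRMZM2G367701). The gene, described as ASPARTIC PROTEASE IN GUARD CELL 2-like (GRMZM2G077776, chromosome 8 from 157262589 to 157264307, plus strand), had 0.54, 2.53 and 0.75 FPKM in zmte1-2 and 20.4, 10.01 and 17.7 FPKM in WT. The highest zmte1-2 library stood at 2.53 FPKM and the lowest WT library at 10.01 FPKM. The log2 fold change was -3.33 (SE 0.53, limma adjusted p = 0.0127), and it was -2.36 after rescaling (limma adjusted p = 0.0264). A relative described without the suffix (GRMZM2G149996, named after its values were seen) was under the minimum, with 0.04, 0.28 and 0 FPKM in zmte1-2 and 0.28, 0.4 and 0.32 FPKM in WT.

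The abundant aspartic proteases behaved differently from one another. The gene described as aspartyl protease family protein At5g10770 (GRMZM2G018044, chromosome 7 from 131475065 to 131477324, plus strand) had 61.4, 94 and 37.8 FPKM in zmte1-2 and 30.6, 41.6 and 17.5 FPKM in WT. Its zmte1-2 mean was higher, yet library 3 of zmte1-2 lay below WT library 2, and the log2 fold change of 1.08 (SE 0.52) did not pass (limma adjusted p = 0.104); after rescaling it did (log2 fold change 2.23, limma adjusted p = 0.0419). An aspartic proteinase (AC155434.2_FG003, chromosome 7 from 173926857 to 173929260, plus strand) had 47.1, 9.65 and 37.7 FPKM in zmte1-2 and 1.37, 24.7 and 7.33 FPKM in WT. Its values spread widely within each genotype, and the log2 fold change of 1.88 (SE 1.03) did not pass (limma adjusted p = 0.138). A nepenthesin-2-like gene (GRMZM2G153523, named after its values were seen) stood at 81.9 FPKM in zmte1-2 library 2 alone, with 4.15 and 3.83 FPKM in zmte1-2 libraries 1 and 3 and 17.7, 7.34 and 9.99 FPKM in WT. That library set its fold change, which was 0.05 on the log2 scale with all libraries and -1.35 without it (limma adjusted p = 0.968 and 0.0310).

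The gene nearest to the threshold from outside was nepenthesin-2 (GRMZM2G311680, chromosome 8 from 150442634 to 150444888, plus strand). It had 4.45, 5.82 and 6.1 FPKM in zmte1-2 and 14.4, 8.6 and 11.98 FPKM in WT (log2 fold change -1.01, SE 0.37, limma adjusted p = 0.0603). Its groups did not overlap, and its log2 fold change lay 0.07 above the median of all tested genes.

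Papain-type cysteine proteases were represented by 2 genes, both tested, and 1 fell, where 34.2% of all tested genes fell. Xylem cysteine proteinase 2 (XCP2, GRMZM2G367701, chromosome 8 from 156268201 to 156269754, minus strand) bears the name of an Arabidopsis protease of the vacuole of xylem vessel cells, where it takes part in clearing the cell contents. It had 7.55, 65.7 and 4.44 FPKM in zmte1-2 and 106, 101 and 91.7 FPKM in WT. The WT libraries lay close together, zmte1-2 libraries 1 and 3 were far below them, and zmte1-2 library 2 was between. With a log2 fold change of -2.86 (SE 0.93, limma adjusted p = 0.0482) it was the gene nearest to the threshold from inside, and without the FPKM minimum it did not pass (limma adjusted p = 0.0571). Without zmte1-2 library 2 the log2 fold change was -3.99 (limma adjusted p = 0.00306). With any other single library left out XCP2 did not pass (limma adjusted p up to 0.145). After rescaling its log2 fold change was -1.72 and did not pass (limma adjusted p = 0.284).

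Among the 35 proteases taken here, XCP2 had the highest FPKM in every WT library. It made up 3.03%, 16.2% and 1.89% of the summed protease FPKM in zmte1-2 libraries 1 to 3 and 25.9%, 26.1% and 24.2% in WT libraries 1 to 3. The summed FPKM of all 35 proteases was 249.6, 405 and 235 in zmte1-2 libraries 1 to 3 and 409.8, 389 and 379 in WT libraries 1 to 3. Without XCP2 the sums were 242, 339 and 230 in zmte1-2 and 304, 287 and 287 in WT, so that zmte1-2 libraries 1 and 3 remained below WT and library 2 was above it.

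Other genes picked by description as markers of xylem and secondary walls did not share one direction. The list held 15 genes, such as laccases, cellulose synthases and fasciclin-like proteins, and its words do not separate primary from secondary walls. Of these, 10 were tested, 4 fell and 3 rose, beside 34.2% falls and 6.02% rises over all tested genes. The summed FPKM of the list ranged from 334 to 489 in zmte1-2 and from 255 to 324 in WT. In whole nodes, fewer cells of a type and less RNA per cell cannot be told apart, and the part of xylem content in the fall of XCP2 was not tested. The other papain-type gene, cysteine protease 1 (GRMZM2G098102, chromosome 4 from 19936806 to 19938403, plus strand), had 0.05, 0.07 and 1.78 FPKM in zmte1-2 and 0, 2.85 and 6.14 FPKM in WT. The genotypes overlapped, and the log2 fold change of -1.32 did not pass (SE 1.01, limma adjusted p = 0.263).

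**Figure D2:**
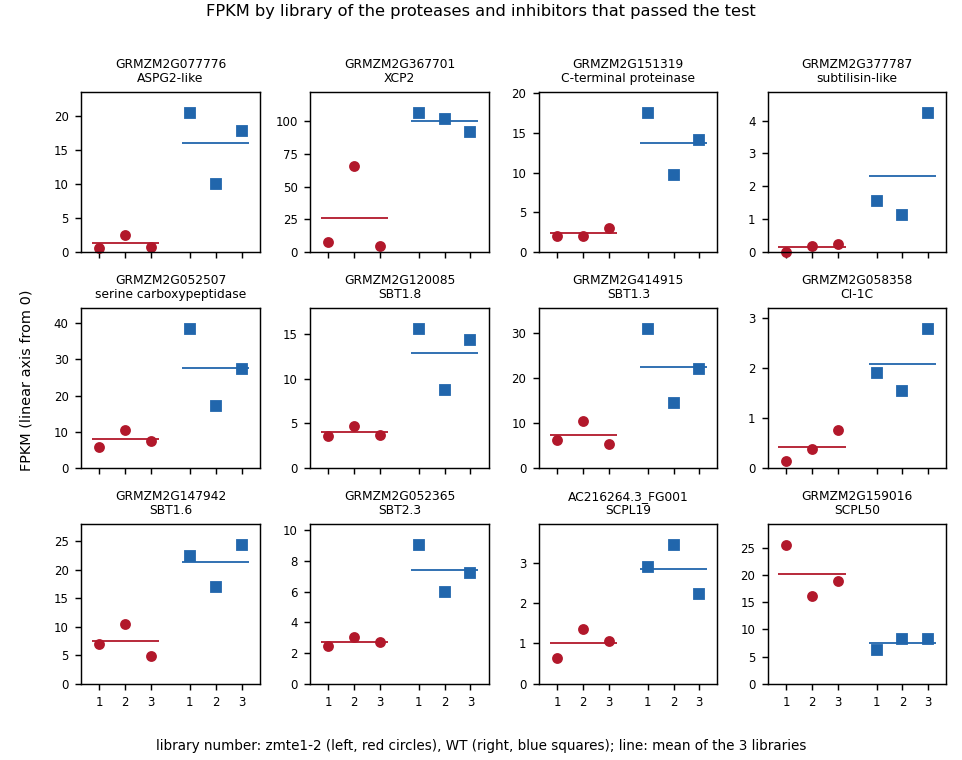
FPKM (vertical axes, linear from 0) in each library of the 12 genes that passed the test, with zmte1-2 as red circles on the left, WT as blue squares on the right and a line at the mean of the 3 libraries of a genotype. The genotypes do not overlap in any of the panels, zmte1-2 library 2 of XCP2 stands at 65.7 FPKM while libraries 1 and 3 are at 7.55 and 4.44 FPKM, and SCPL50 is the panel with zmte1-2 above WT.

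Serine carboxypeptidases remove amino acids from the carboxyl end of proteins, and some proteins of the family (SCPL) have become acyltransferases of secondary metabolism. With all 6 libraries they were the class with calls in both directions. Of 7 genes 5 were tested, 2 fell and 1 rose, beside 34.2% falls and 6.02% rises over all tested genes. The summed FPKM of the 7 genes was 47.0, 58.3 and 47.3 in zmte1-2 libraries 1 to 3 and 55.5, 42.0 and 45.8 in WT libraries 1 to 3, with no separation of the genotypes.

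SCPL50 (GRMZM2G159016, chromosome 6 from 167086176 to 167088019, plus strand) was the gene that rose. It had 25.5, 16.1 and 18.8 FPKM in zmte1-2 and 6.15, 8.19 and 8.21 FPKM in WT, and the genotypes were apart in every library. The log2 fold change was 1.35 (SE 0.37, limma adjusted p = 0.0357) and 2.45 after rescaling (limma adjusted p = 0.0204). SCPL51 (GRMZM2G136495) and SCPL40 (GRMZM6G706391), named after their values were seen, also had all zmte1-2 libraries above all WT libraries. SCPL51 had 9.46, 8.01 and 14.1 FPKM in zmte1-2 and 2.99, 7.89 and 3.95 FPKM in WT, and SCPL40 had 5.14, 13.5 and 5.56 FPKM in zmte1-2 and 4.28, 5.05 and 1.26 FPKM in WT. With all 6 libraries on the deposited scale neither passed (log2 fold changes 1.08 and 1.12, limma adjusted p = 0.0802 and 0.131), and in both the lowest zmte1-2 library lay next to the highest WT library. SCPL51 passed after rescaling (log2 fold change 2.13, limma adjusted p = 0.0345) and without zmte1-2 library 2 (log2 fold change 1.25, limma adjusted p = 0.0471). SCPL40 passed in neither setting (limma adjusted p = 0.0522 and 0.252).

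Serine carboxypeptidase 1 (GRMZM2G052507, chromosome 2 from 223631394 to 223634693, minus strand) fell, with 5.77, 10.4 and 7.57 FPKM in zmte1-2 and 38.4, 17.2 and 27.5 FPKM in WT (log2 fold change -1.71, SE 0.45, limma adjusted p = 0.0323). SCPL19 (AC216264.3_FG001, chromosome 5 from 45935740 to 45938649, minus strand), whose Arabidopsis namesake joins sinapate to choline, had 0.65, 1.37 and 1.05 FPKM in zmte1-2 and 2.89, 3.44 and 2.23 FPKM in WT (log2 fold change -1.15, SE 0.33, limma adjusted p = 0.0369). Neither gene overlapped between the genotypes. A second gene described as SCPL50 (GRMZM2G131315, named after its values were seen) was not tested, with 0.28, 7.78 and 0.18 FPKM in zmte1-2 and 0.74, 0.25 and 2.65 FPKM in WT, so it was high in zmte1-2 library 2 alone.

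Of the 7 other proteases 4 were tested, 1 fell and none rose, beside 34.2% falls and 6.02% rises over all tested genes. All 4 tested had a negative log2 fold change, as had 2688 of all 3987 tested genes. The fall was that of a gene described as a carboxyl-terminal proteinase precursor (GRMZM2G151319, chromosome 3 from 227312894 to 227316009, plus strand), with 2.08, 2.08 and 3 FPKM in zmte1-2 and 17.5, 9.67 and 14.2 FPKM in WT. Its zmte1-2 libraries were close together and far under the lowest WT library. The log2 fold change was -2.28 (SE 0.39, limma adjusted p = 0.0131), and after rescaling -1.23 (limma adjusted p = 0.0330).

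The rest of this class works inside organelles or the nucleus or is bound to membranes. The ATPase subunit of the Clp protease (GRMZM2G098545, chromosome 2 from 166815647 to 166818054, minus strand), which unfolds proteins for degradation in plastids and mitochondria, had 1.78, 4.99 and 2.17 FPKM in zmte1-2 and 7.75, 4.82 and 6.68 FPKM in WT. Library 2 of zmte1-2 lay above WT library 2, and the log2 fold change of -1.08 did not pass (SE 0.45, limma adjusted p = 0.0759). Protease Do-like 9 and the membrane metalloprotease ARASP2 had log2 fold changes of -0.91 and -0.77 (limma adjusted p = 0.0614 and 0.106). The metalloendoproteinase 1-MMP, a LON domain protein and the metalloprotease ARASP were under the minimum, at no more than 0.79 FPKM in any zmte1-2 library and 1.49 FPKM in any WT library.

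Bowman-Birk inhibitors are small, disulfide-rich inhibitors of trypsin and chymotrypsin. All 4 were tested, none passed, and in every gene the genotypes overlapped. Over all tested genes 34.2% fell and 6.02% rose, and of all listed genes 48.8% lay wholly below WT and 11.4% wholly above. The median log2 fold change of the 4 Bowman-Birk genes was -0.52, from 2 positive and 2 negative values. The wound-induced inhibitor WIP1 (GRMZM2G156632, chromosome 8 from 12275985 to 12276693, minus strand), known in maize from wounded seedlings, had the highest mean over all 6 libraries of the genes considered, although XCP2 lay above it in every WT library. It had 359.6, 26.3 and 392 FPKM in zmte1-2 and 8.37, 63.4 and 74.7 FPKM in WT. Libraries 1 and 3 of zmte1-2 lay far above every WT library, while zmte1-2 library 2 lay between WT library 1 and WT library 2. The log2 fold change was 2.16, with an SE of 1.27 (limma adjusted p = 0.161). Without zmte1-2 library 2 it was 3.43 (limma adjusted p = 0.0158), and without that library and WT library 1 it was 2.44 (limma adjusted p = 0.00613). With any other single library left out WIP1 did not pass (limma adjusted p up to 0.430).

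The next Bowman-Birk gene ran the other way. GRMZM2G116520 (chromosome 10 from 96691687 to 96692590, plus strand) had 1.37, 1.2 and 8.84 FPKM in zmte1-2 and 2.34, 9.81 and 34.7 FPKM in WT (log2 fold change -1.71, SE 1.05, limma adjusted p = 0.177). GRMZM2G075315, named after its values were seen, lies 1320.2 kb away on the same strand and had 1.62, 0.83 and 10.01 FPKM in zmte1-2 and 2.61, 9.03 and 30.4 FPKM in WT. The values of this pair were alike in every library, and if the copies are near-identical they may share reads, so their separate levels are uncertain. The smallest of the class, GRMZM2G007928, had a log2 fold change of 0.62 (limma adjusted p = 0.448).

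Cystatins inhibit papain-type cysteine proteases. Of 4 genes 2 were tested and neither passed, beside 34.2% falls and 6.02% rises over all tested genes. All 4 had a higher mean in zmte1-2 than in WT. The abundant cystatin GRMZM2G012160 (chromosome 8 from 170965314 to 170968006, minus strand) had 78.3, 34.3 and 117 FPKM in zmte1-2 and 17.9, 48.8 and 43.5 FPKM in WT. Libraries 1 and 3 of zmte1-2 lay above every WT library and library 2 within the WT range, giving a log2 fold change of 1.004 (SE 0.62, limma adjusted p = 0.181). Cystatin 6 (GRMZM2G401328, chromosome 1 from 79139823 to 79140627, minus strand) had 3.02, 1.23 and 11.3 FPKM in zmte1-2 and 1.11, 1.93 and 0.72 FPKM in WT (log2 fold change 1.304, SE 0.71, limma adjusted p = 0.135). Without zmte1-2 library 2 both passed, beside 20.2% rises over all tested genes. The log2 fold changes were then 1.49 for GRMZM2G012160 and 1.94 for cystatin 6 (limma adjusted p = 0.0385 and 0.0223). With any other single library left out neither passed (limma adjusted p up to 0.468 and 0.343).

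A pair of weak cystatins, named after their values were seen, lie 20 kb apart on chromosome 4. GRMZM2G359581 had 2.09, 0.36 and 1.89 FPKM in zmte1-2 and 0.2, 0 and 0.39 FPKM in WT. GRMZM2G312061 had 3.39, 0.15 and 1.48 FPKM in zmte1-2 and 0, 0.68 and 0 FPKM in WT. Both were under the minimum, and in both zmte1-2 libraries 1 and 3 were above every WT library while library 2 was not.

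The subtilisin-chymotrypsin inhibitors, which take their names CI-1B and CI-1C from barley proteins, differed in direction. CI-1C (GRMZM2G058358, chromosome 8 from 93429523 to 93429954, minus strand) was the inhibitor that passed the test. It had 0.13, 0.38 and 0.76 FPKM in zmte1-2 and 1.91, 1.55 and 2.78 FPKM in WT, a log2 fold change of -1.51 (SE 0.35, limma adjusted p = 0.0249). CI-1C reached the minimum through its WT libraries alone, where it was higher, so the filter had a part in its being tested and called. Without the minimum it also passed (limma adjusted p = 0.0351). Both genes described as CI-1B had all zmte1-2 libraries above all WT libraries, at levels under the minimum. GRMZM2G000326 (chromosome 6 from 39462072 to 39462798, plus strand) had 1.14, 0.65 and 2.21 FPKM in zmte1-2 and 0, 0.09 and 0 FPKM in WT. GRMZM2G096680 (chromosome 6 from 39431501 to 39432324, plus strand), 29.7 kb away, had 0.12, 0.36 and 1.36 FPKM in zmte1-2 and was listed at 0 in all 3 WT libraries. When the minimum was dropped, GRMZM2G000326 passed as higher (log2 fold change 1.70, limma adjusted p = 0.0262) and GRMZM2G096680 did not (log2 fold change 0.996, limma adjusted p = 0.0772).

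**Figure D3:**
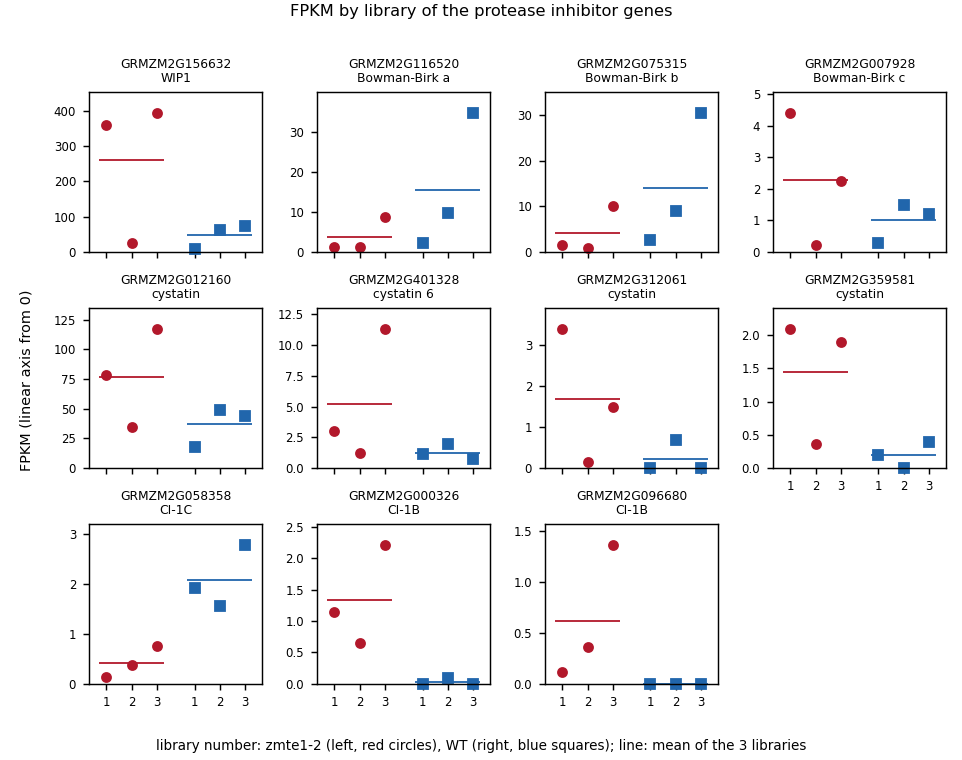
FPKM (vertical axes, linear from 0) in each library of the 11 protease inhibitor genes, with zmte1-2 as red circles on the left, WT as blue squares on the right and a line at the mean of the 3 libraries of a genotype. In WIP1 zmte1-2 libraries 1 and 3 stand at 359.6 and 392 FPKM and library 2 at 26.3 FPKM, inside the WT range of 8.37 to 74.7 FPKM.

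The gene that is neither protease nor inhibitor of the plant families by its description, an inter-alpha-trypsin inhibitor heavy chain H1 (GRMZM2G450228, chromosome 8 from 12360180 to 12362023, minus strand), takes its name from an animal plasma protein. It had 0.11, 0 and 0 FPKM in zmte1-2 and 0.6, 0.27 and 0.38 FPKM in WT, under the minimum, with the genotypes apart. When the minimum was dropped it passed as lower (log2 fold change -0.76, limma adjusted p = 0.0426).

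Proteases and inhibitors differed in how they varied within a genotype. The summed FPKM of the 11 inhibitors was 455, 65.9 and 549 in zmte1-2 libraries 1 to 3 and 34.7, 137 and 188 in WT libraries 1 to 3. It was thus lowest in zmte1-2 library 2 and in WT library 1, the libraries that stood apart over all genes. WIP1 made up 79.0%, 39.9% and 71.4% of this sum in zmte1-2 and 24.1%, 46.3% and 39.6% in WT. The sums of zmte1-2 libraries 1 and 3, and the ratios below, thus rest largely on WIP1 and do not describe the inhibitors as a group. For every 100 FPKM of the 35 proteases there were 182, 16.3 and 234 FPKM of inhibitor in zmte1-2 libraries 1 to 3 and 8.47, 35.2 and 49.7 FPKM in WT libraries 1 to 3. The ratio of zmte1-2 library 2 lay within the WT range, and those of zmte1-2 libraries 1 and 3 lay above it. These ratios cover only the listed genes taken here and give no balance of the tissue. The 52 other listed genes with the ontology term peptidase activity summed to 1042, 3050.5 and 938 FPKM in zmte1-2 libraries 1 to 3. In WT libraries 1 to 3 they summed to 1408, 1005 and 1100 FPKM.

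**Figure D4:**
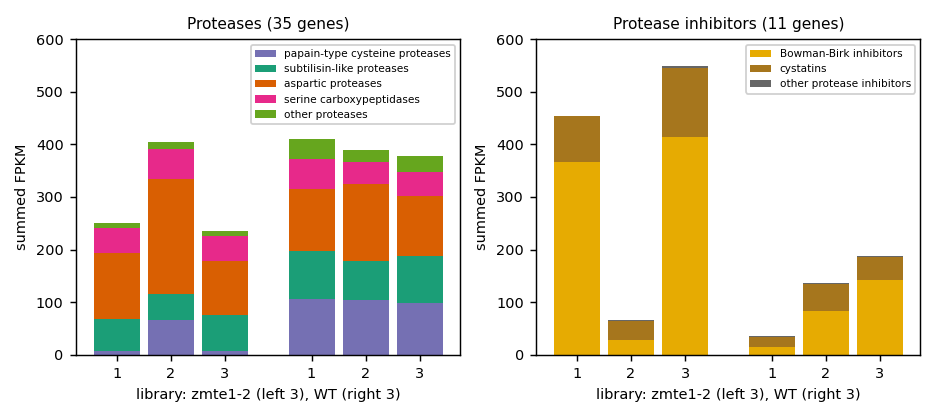
Summed FPKM (vertical axes, linear from 0) of the 35 proteases on the left and the 11 inhibitors on the right in each library, with the 3 zmte1-2 libraries left of the 3 WT libraries and classes as stacked colours. The papain-type share is large in WT, at 97.8 to 106 FPKM, and the inhibitor sums of zmte1-2 libraries 1 and 3, 455 and 549 FPKM, exceed all others.

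Gene by gene, all 11 inhibitors were lower in zmte1-2 library 2 than the mean of zmte1-2 libraries 1 and 3 on the log2(FPKM + 0.5) scale, and 9 of them were also lower in WT library 1 than the mean of WT libraries 2 and 3. Of the 35 proteases, 9 were lower in zmte1-2 library 2, and 7 were lower in both of these libraries. Over all tested genes, 24.0% were lower in both, and no such share is given for zmte1-2 library 2 alone. The counts include genes under the FPKM minimum, 4 of the 11 inhibitors and 6 of the 35 proteases, which the 24.0% does not cover. The medians over the tested inhibitors were -1.83 for zmte1-2 library 2 and -1.34 for WT library 1, over the tested proteases 0.37 and 0.18, and over all tested genes 0.01 and 0.29. WIP1 had differences of -3.81 and -2.97, and the cystatin GRMZM2G012160 of -1.47 and -1.34. Among proteases the aspartic proteinase AC155434.2_FG003 varied like them, with -2.07 and -2.91, whereas XCP2 was higher by 3.39 in zmte1-2 library 2 and by 0.13 in WT library 1. These values are a description, given with no test, since both libraries were singled out from the same data.

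**Figure D5:**
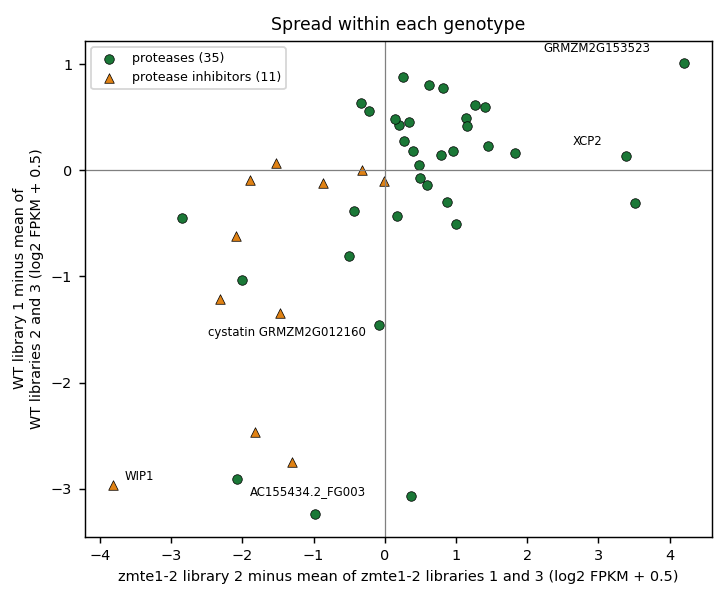
For each protease (circles, 35 genes) and inhibitor (triangles, 11 genes), the log2(FPKM + 0.5) of zmte1-2 library 2 minus the mean of zmte1-2 libraries 1 and 3 (horizontal axis) and of WT library 1 minus the mean of WT libraries 2 and 3 (vertical axis). All 11 triangles lie left of 0, and 9 lie below 0 as well, with WIP1 at -3.81 and -2.97.

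The summed level of genes of jasmonate synthesis and the TIFY repressors of its signalling had a pattern over libraries like that of the inhibitor sum, while the typical gene of the list did not. The summed FPKM of the 16 listed genes was 5014, 1822 and 4586 in zmte1-2 libraries 1 to 3 and 1036, 1827 and 1636 in WT libraries 1 to 3. As in the inhibitor sums, zmte1-2 libraries 1 and 3 were above every WT library, zmte1-2 library 2 lay within the WT range, and WT library 1 was the lowest. Over the tested genes of the list, however, the median difference was 0.24 for zmte1-2 library 2 and -0.38 for WT library 1, against -1.83 and -1.34 over the tested inhibitors. Of the 14 tested, 1 fell and 1 rose, beside 34.2% falls and 6.02% rises over all tested genes. Without zmte1-2 library 2 and WT library 1 the numbers were 1 and 7, beside 44.8% falls and 18.9% rises. The part of jasmonate genes in the level of the inhibitors was not tested.

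Other genes of protein breakdown and defence were set beside the same 34.2% falls and 6.02% rises over all tested genes. Of 31 tested genes of the ubiquitin-proteasome system, 10 fell and 1 rose, with a median log2 fold change of -1.14. Of 5 tested peptidases whose descriptions lie outside the words used here, such as metacaspases and rhomboid proteins, 1 fell and 1 rose. Of the 43 tested genes that carry the ontology term peptidase activity without being among the 47, a list chosen after seeing the data, 17 fell and 3 rose. Of 43 tested pathogenesis-related proteins, such as chitinases and thaumatin-like proteins, 17 fell and 1 rose, and of 3 tested autophagy and senescence genes 0 passed in limma in either direction, also at an unadjusted p under 0.05.

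Markers of the tissues that a node sample could hold were set beside the same shares, 34.2% falls and 6.02% rises over all tested genes. Of 25 tested histone and cyclin genes of dividing cells 7 fell and none rose, and the sum over the list was 2127 to 3107 FPKM in zmte1-2 and 4176 to 6781 FPKM in WT. Of 21 tested genes of green leaf tissue 9 fell and none rose, with sums of 141 to 198 FPKM in zmte1-2 and 248 to 946 FPKM in WT. Of the 2 listed shoot meristem genes, knotted-1 and a liguleless2-like gene, 1 rose and none fell, with sums of 26.8 to 89.5 FPKM in zmte1-2 and 80.4 to 146 FPKM in WT. Without zmte1-2 library 2 and WT library 1, 5 genes of dividing cells fell and 1 rose, beside 44.8% falls and 18.9% rises over all tested genes. In that setting 13 genes of green leaf tissue fell and 0 rose, and 1 shoot meristem gene fell and 1 rose. The xylem and secondary wall list then had 4 falls and 4 rises. At an unadjusted p under 0.05, where 53.5% of all tested genes fell and 11.1% rose, limma gave 23 falls among the genes of dividing cells, 16 among those of green leaf tissue and 1 among those of the shoot meristem, and 0 rises in the green leaf and dividing cell lists. It gave 1 rise in the shoot meristem list, and 4 falls and 6 rises among the 10 tested xylem and secondary wall genes. The part of these tissues in the falls of the proteases was not tested.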

How the data were processed

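RNA-seq of maize nodes was analysed from 1 deposited table with 3 zmte1-2 and 3 WT libraries at 28 days. The authors deposited FPKM values per library, scaled to transcript length and library size, for genes they had called different, beside their own fold changes and p-values, which were not used. Labels name an RNeasy kit and the paper TRIzol for RNA extraction. The values came with aligner, counting method, strand setting, genome build and test not given in the sources used here. Depth is unknown, whole reads could not be recovered, and no count model was run. Library numbers were taken as replicates.

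The members and lists were chosen with earlier results of these data known. Genes were matched by the third field of the deposited description and sorted into classes by its words. Metalloproteases and ATP-dependent proteases were joined with the other proteases, since the fixed words had split like proteins. limma 3.58.1 in R 4.3.3 (two-sided, eBayes with trend) was fitted on log2(FPKM + 0.5) to the 3987 genes that reached an FPKM of 1 in 3 or more libraries, a scale that understates changes of weak genes. Calls were made at a Benjamini-Hochberg adjusted p under 0.05 over these genes. A permutation test of 3 against 3 libraries cannot go below p = 0.1, so it was not used. The code was tested on simulated data. Named in each class were the 2 most abundant genes and the 2 largest falls and rises among those called, with the genes just inside and outside the threshold, and every other gene named was chosen after its values were seen. No pair of libraries held the same value above 0 in more than 1.71% of genes. Alternatives were other pseudocounts (0.1 and 1), filters, variance models and scaling, the thresholds of the study, the replicate block, and libraries left out. Protein sequences were not analysed here.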

Additional observations from a re-analysis of the deposited data

How the results depend on the processing

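Of the 12 called genes, all kept their sign under every alternative run in which they were tested. The count of falls, 11 in the analysis above, stayed between 8 and 16 with a pseudocount of 0.1 or 1, an FPKM minimum of 5 or none, no variance trend, a robust variance model or the thresholds of the study (16). With the pseudocounts and variance models, 30.45% to 35.34% of all tested genes fell. A minimum of 5 gave 8 falls of 22 tested, beside 36.75% over all genes in that fit. No minimum gave 10 of 47, beside 22.1%, and the thresholds of the study gave 16 of 36, beside 47.3%. Rescaling by the median of ratios left 2 falls and 3 rises, beside 5.17% falls and 13.3% rises over all tested genes, and 3 of the 12 calls held. Leaving out each library in turn gave 0 to 17 falls and 0 to 9 rises, beside 0.0251% to 48.9% falls and 0.0251% to 20.2% rises over all tested genes. Leaving out zmte1-2 library 2 with WT library 1 gave 18 falls and 7 rises, a choice made after seeing the data. Without the FPKM minimum there were 2 rises. The replicate number as a block left 0 falls and 0 rises, and 1 fall and 1 rise over all tested genes. The labels do not say that a number pairs libraries, and same-numbered libraries deviated together at r = -0.305, -0.398 and 0.406, so they were not taken as pairs. Nepenthesin-2 (GRMZM2G311680), which was not called, reversed after rescaling to a log2 fold change of 0.0819 (limma adjusted p = 0.913). Rescaling assumes no overall shift among genes that the authors had selected, most of them lower, and these genes alone cannot decide between the scalings. Over 20 named and tested genes and 15 alternatives, 294 values could be computed: 218 kept direction and call status, 60 lost a call, 15 gained one and 1 reversed. The 218 include genes that were not called and stayed so. Only called genes could lose a call, so 218 of 294 is not the share of calls that held. The cause of these changes was not tested. Unknown depth limits the genes under 1 FPKM, whose counting error cannot be given.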
